A study of Mus musculus with 24 samples.

Results

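The difference of the PEG effect between 2 stromal cell types of the Peyer's patch was measured by RNA sequencing. The contrast was the PEG effect in high endothelial venule (HEV) endothelial cells minus the PEG effect in fibroblastic reticular cells (FRCs). It was taken over all 24 of the 24 libraries of the series, and genes whose responses ran opposite ways are described below. Mice drank 10% (w/v) polyethylene glycol (PEG) without restriction for 3 days, which the study used to diminish fluid flow, or were left unperturbed. The HEV groups held 6 PEG libraries (7, 14, 15, 16, 22 and 23) and 4 unperturbed controls (8, 9, 17 and 24). The FRC groups held 7 PEG libraries (1, 2, 3, 10, 11, 18 and 19) and 7 unperturbed controls (4, 5, 6, 12, 13, 20 and 21). Each library came from 1000 cells sorted from 1 mouse, and the labels give no strain, genotype or age and do not say whether an HEV and an FRC library share a mouse.

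HEVs are the vessels through which lymphocytes leave the blood and enter lymphoid tissue, and their endothelium carries glycoprotein addressins that lymphocyte selectins and integrins bind. FRCs are the fibroblasts of the lymphocyte zones. They wrap a network of matrix conduits that carries fluid, and they make chemokines and survival factors for lymphocytes. Both cell types lie in a path of moving fluid, blood and conduit fluid respectively, and endothelium is known to set the expression of genes such as Klf2 by shear stress.

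Libraries held between 12416032 and 21710946 reads assigned to genes, except HEV PEG library 16 with 3115003. The sorted populations carried their defining markers. The 20 pan-endothelial markers summed to between 16180.0 and 19667 counts scaled to the library total (CPM) in the HEV libraries and to at most 814 in the FRC libraries. The 18 pan-fibroblastic markers summed to at least 30028 CPM in the FRC libraries and to at most 574.5 in the HEV libraries, where control 9 was the highest. Intestinal epithelial transcripts were present in every group. The 27 epithelial markers summed to between 16.6 and 8826 CPM in HEV controls and to between 54.0 and 5847 in HEV PEG libraries. They spanned 97.5 to 3402 in FRC controls and 144 to 19359 in FRC PEG libraries. The i5 sequencing index was unevenly spread. All 7 FRC PEG libraries carried index N503 and all 6 HEV PEG libraries index N504. Of the controls, 3 of 7 FRC and 2 of 4 HEV libraries carried index N503. Read quality went with the index. A read quality score was 35.9 to 36.1 with index N503 and 34.5 to 35.3 with N504. Clipping was 1.41% to 2.08% and 3.45% to 5.41%, so neither measure overlapped between the indexes. In such bulk samples, fewer cells of a type and less RNA per cell cannot be told apart.

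Of 18203 genes tested, 2 passed the test of the difference, both with the higher PEG effect in HEV (0.011%), and 0 with the lower (0%) (edgeR quasi-likelihood test, Benjamini-Hochberg adjusted p under 0.05). They were Rragd, which encodes a Rag GTPase that helps recruit the growth kinase mTORC1 to lysosomes, and Flnc, which encodes filamin C, an actin crosslinker. Both were expressed at low levels in HEV and at far higher levels in FRCs, and neither FRC effect was opposite by the rule used below. At an unadjusted p under 0.05 the difference was positive for 1011 genes (5.55%) and negative for 823 (4.52%), where evenly spread p-values would give 910 in all. In the same model the PEG effect itself passed for 18 genes in HEV (0.0989%) and for 0 in FRC (0%), where 1167 genes had an unadjusted p under 0.05, DESeq2 called 152 and limma-voom 1.

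Rragd had 0 reads in each of the 4 HEV controls. The 6 HEV PEG libraries held 4, 61, 83, 6, 9 and 62 reads, in library order, which is 0.321 to 4.29 CPM. Every HEV PEG library was therefore above every HEV control, a pattern that 85 of all genes tested showed (0.467%). Set against a floor of 3 reads over the 62020923 reads of the HEV controls together, the pooled HEV level was 57.8-fold higher with PEG. This ratio pools the reads and leaves out the spread between libraries, so it is no lower bound of the PEG effect. In FRCs Rragd had a lowest, median and highest level of 20.0, 30.2 and 40.4 CPM in controls and 9.49, 23.5 and 45.6 CPM in PEG libraries, and these groups overlapped. The fitted log2 difference of 8.27 ± 1.22 (SE; adjusted p = 0.0208, edgeR) rests on HEV controls at 0 and depends on the prior count.

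Flnc had 1, 4, 0 and 2 reads in HEV controls 8, 9, 17 and 24. It had between 4 and 82 reads in the HEV PEG libraries, or 0.900 to 4.59 CPM, again above all 4 controls. FRC levels were 34.4, 53.9 and 81.0 CPM in controls and 13.9, 33.5 and 69.6 CPM in PEG libraries (lowest, median and highest), and overlapped. The log2 PEG effect was 4.04 ± 0.65 in HEV and -0.53 ± 0.39 in FRC, a difference of 4.57 ± 0.75 (adjusted p = 0.0234, edgeR). The HEV library with the highest fibroblastic marker sum, control 9 at 574.5 CPM, had 0 Rragd and 4 Flnc reads. The 6 HEV PEG libraries, with marker sums of 75.2 to 143 CPM, held 225 Rragd and 187 Flnc reads together. Control 9 was not high for every fibroblastic marker. Pdgfra had 4, 1, 2 and 3 reads in HEV controls 8, 9, 17 and 24. It had 2, 2, 0, 5, 6 and 3 reads in the HEV PEG libraries, in library order. The part of fibroblastic RNA in these reads was not tested.

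The call was lost for Rragd in 6 of 38 alternative analyses and for Flnc in 10 of 38, with adjusted p from 6.15e-07 to 0.731 and from 7.02e-07 to 0.230 over these alternatives. With the i5 index added to the model the adjusted p was 0.138 for Rragd and 0.210 for Flnc (edgeR), while the log2 differences were 8.50 and 4.80. DESeq2 called 350 genes (2.05% of the 17088 with an adjusted p), 207 higher and 143 lower in HEV, and limma-voom 0. Within the 3 pools, which hold 1 to 3 HEV PEG and 1 or 2 HEV control libraries each, the difference on the log2(CPM + 1) scale was 0.28, 3.34 and 1.11 for Rragd and 2.51, 1.67 and 2.02 for Flnc. Leaving out single libraries also ended each call, HEV control 9 for Rragd (adjusted p = 0.0694) and any of FRC libraries 2, 6, 11, 20 and 21 for Flnc (adjusted p from 0.0568 to 0.0624). The number of called genes was 16 without HEV control 8, 9 without control 17, 6 without control 24 and 5 without HEV PEG library 7 or 22, and it was 1 without HEV control 9 or any of those 5 FRC libraries.

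**Figure D1:**
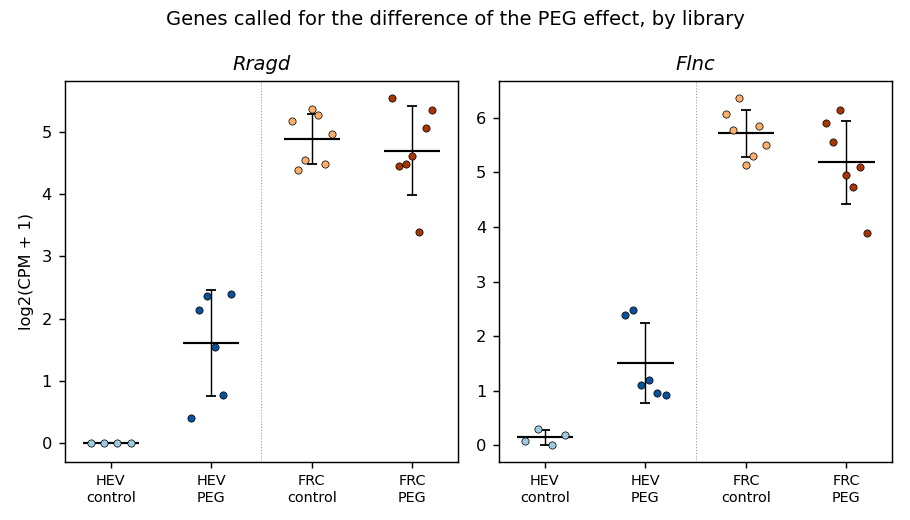
Rragd and Flnc in each of the 24 libraries, as log2(CPM + 1) on the vertical axis, by group on the horizontal axis; each point is 1 library, the horizontal bar is the group mean and the whiskers are 1 SD. All 6 HEV PEG libraries lie above all 4 HEV controls for both genes, and all HEV libraries lie below the FRC libraries.

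The bases upstream of the starts of both called genes are shown with those of 3 opposite-way genes described below, Rab21 and Spg21, whose HEV groups did not overlap, and Errfi1. Each sequence is the 250 bases before a RefSeq gene start (assembly GRCm38.p6), 5′ to 3′ on the strand of the gene. Rragd lies at chr4:32982748-32982997 (plus strand), the second of 2 listed starts of Flnc at chr6:29433006-29433255 (plus), Rab21 at chr10:115315592-115315841 (minus), Spg21 at chr9:65460687-65460936 (plus) and the second of 2 listed starts of Errfi1 at chr4:150854820-150855069 (plus). Capitals mark the letters of any of 3 motifs on either strand: CACGTG, the E-box bound by TFEB-like and clock factors; TGACGTCA, the cAMP response element; and GGAATG, the core letters bound by TEAD factors.
Rragd: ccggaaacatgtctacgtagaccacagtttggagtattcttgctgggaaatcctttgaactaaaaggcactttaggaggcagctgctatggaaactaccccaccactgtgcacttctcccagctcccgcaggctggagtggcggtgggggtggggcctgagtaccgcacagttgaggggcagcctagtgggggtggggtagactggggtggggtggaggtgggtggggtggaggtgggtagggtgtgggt
Flnc: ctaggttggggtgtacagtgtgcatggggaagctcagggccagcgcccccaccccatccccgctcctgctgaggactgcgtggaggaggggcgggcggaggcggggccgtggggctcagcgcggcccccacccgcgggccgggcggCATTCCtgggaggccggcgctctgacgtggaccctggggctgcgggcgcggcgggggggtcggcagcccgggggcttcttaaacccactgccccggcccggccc
Rab21: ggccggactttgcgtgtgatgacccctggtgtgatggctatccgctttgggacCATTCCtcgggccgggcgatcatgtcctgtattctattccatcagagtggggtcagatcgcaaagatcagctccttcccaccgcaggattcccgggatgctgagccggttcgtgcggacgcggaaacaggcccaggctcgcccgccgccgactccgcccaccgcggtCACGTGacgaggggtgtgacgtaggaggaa
Spg21: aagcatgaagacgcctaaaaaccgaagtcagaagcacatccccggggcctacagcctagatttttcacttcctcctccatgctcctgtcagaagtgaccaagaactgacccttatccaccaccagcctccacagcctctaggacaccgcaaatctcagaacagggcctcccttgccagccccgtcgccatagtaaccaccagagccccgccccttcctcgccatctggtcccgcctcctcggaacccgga
Errfi1: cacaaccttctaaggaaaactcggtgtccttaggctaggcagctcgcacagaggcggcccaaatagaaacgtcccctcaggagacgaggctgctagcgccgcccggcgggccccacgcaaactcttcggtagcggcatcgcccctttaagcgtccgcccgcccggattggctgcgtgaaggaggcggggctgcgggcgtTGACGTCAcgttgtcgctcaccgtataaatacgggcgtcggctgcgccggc
Of the 26 called or opposite-way genes named by rule, 21 had such windows, 28 windows in all. CACGTG was found upstream of 3 genes (Dpp8, Ilk and Rab21), TGACGTCA upstream of 1 (Errfi1) and GGAATG upstream of 3 (Errfi1, Flnc and Rab21). The GGAATG match of Errfi1 lies before its first listed start, which is not shown. By windows these were 3, 1 and 3 of the 28. Over all 32851 windows these motifs were in 6.02%, 1.55% and 12.6%. A match describes letters only, and Rragd and Spg21 hold none of the 3 motifs in these windows.

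Genes can run opposite ways only where both cell types express them, which 10242 genes did at a mean of at least 5 CPM in each. Among these the 2 fitted PEG effects had opposite signs in 5614, or 54.8%. Across these genes, which are not independent replicates, the HEV and FRC effects were almost unrelated (Pearson's r 0.0547, Spearman's rho -0.0936). A gene was counted as opposite-way when its effects had opposite signs and each had an unadjusted p under 0.05. That rule took 22 genes with a positive effect in HEV and a negative one in FRC (0.215%) and 29 with the reverse (0.283%). The same thresholds took 18 genes with effects of 1 sign (0.176%), 12 positive in both and 6 negative in both. The p-values of the effects chose these genes and are not evidence for them. The 95% confidence interval of a difference, taken as 2 SE to each side, had a median half-width of 1.22 on the log2 scale over these 10242 genes. None of the 51 passed the test of the difference over all genes, with adjusted p between 0.0680 and 0.315 (edgeR). DESeq2 called 30 of the 51, beside 2.05% of the 17088 genes to which it gave an adjusted p. The same libraries chose the 51, so this count is no support. The absolute log2 differences of the 51 ran from 0.70 to 5.16, with a median of 1.39.

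The 3 genes just inside the rule were Puf60, Mxra8 and Zfp566, whose larger p was 0.0476, 0.0485 and 0.0491. Just outside lay Chchd3, Ssbp2 and Adgre5, at 0.0502, 0.0503 and 0.0508. In HEV the PEG and control libraries did not overlap for 8 of the 51 genes, and in FRC for 0. Over the 10242 genes this held for 83 in HEV (0.81%) and for 5 in FRC (0.0488%). The rule used these same libraries, so nothing is read from those counts. For 15 of the 51, all 6 HEV PEG libraries lay beyond their control median and all 7 FRC PEG libraries beyond theirs. The directions were opposite, with HEV higher for 5 genes and lower for 10. The share over the 10242 genes is not given and the rule favours such genes, so nothing is read from this count either.

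**Figure D2:**
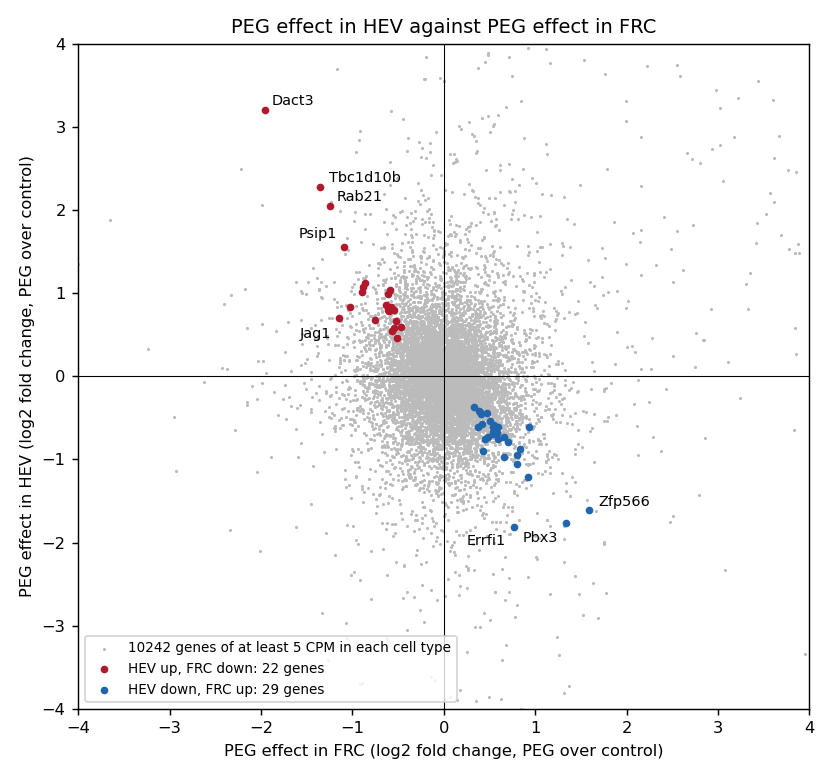
The log2 PEG effect in FRC (horizontal axis) against that in HEV (vertical axis) for 10242 genes of at least 5 CPM in each cell type, with the 22 genes higher in HEV and lower in FRC in red and the 29 with the reverse in blue. Pearson's r across the points is 0.0547, and 79 genes lie outside the plotted range of 4 in either direction.

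The 12 named genes higher with PEG in HEV and lower in FRC are given by their known roles, which is an order of description and no theme. Psip1 encodes a chromatin-tethering protein that reads a histone mark of active genes. It was at 7.40, 2.21, 2.46 and 18.0 CPM in HEV controls 8, 9, 17 and 24 and at 12.8, 21.3 and 27.5 CPM (lowest, median and highest) in HEV PEG libraries, so that only control 24 lay within the PEG range. In FRCs the order was the reverse, with 30.5, 52.0 and 72.8 CPM in controls and 12.6, 23.1 and 34.2 with PEG. Mean levels in HEV and FRC were 7.52 ± 7.38 CPM (SD, n = 4) and 51.6 ± 16.1 CPM (n = 7) in controls, and 21.1 ± 5.46 (n = 6) and 23.6 ± 8.55 (n = 7) with PEG. The log2 effects were 1.56 ± 0.49 and -1.09 ± 0.37, a difference of 2.65 ± 0.61 (adjusted p = 0.136, edgeR).

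Hnrnpu encodes an abundant nuclear RNA-binding protein. Its HEV controls were at 164, 236, 264 and 466 CPM and its HEV PEG libraries at 228, 380.1 and 544, and the groups overlapped, with control 24 above 5 of the 6 PEG libraries. FRC controls were at 251, 370.1 and 497 CPM and FRC PEG libraries at 152, 267 and 284. The effects, 0.46 ± 0.19 in HEV and -0.51 ± 0.15 in FRC, were the smallest in HEV among the 12. Nfix, a transcription factor of the nuclear factor I family, was at 17.1, 24.3, 29.5 and 24.0 CPM in HEV controls and at 31.3, 35.4 and 45.3 in HEV PEG libraries, all 6 above all 4 controls. Its FRC levels were higher in every library, 95.5, 178 and 239.9 CPM in controls and 89.7, 102 and 142 with PEG, and overlapped. Tsc22d2, of the TSC22 family of leucine zipper proteins, also separated in HEV, at 36.0, 41.3, 38.6 and 54.6 CPM in controls against 64.5, 73.9 and 92.3 with PEG. Its FRC levels were 16.6, 44.3 and 56.1 CPM in controls and 15.6, 23.4 and 31.3 with PEG. The difference was 1.07 ± 0.30 for Nfix and 1.41 ± 0.39 for Tsc22d2 (adjusted p = 0.210 and 0.210, edgeR).

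Ligands and signalling regulators were represented by Jag1 and Dact3. Jag1, a membrane ligand of Notch receptors, was at 63.8, 97.9, 108 and 138 CPM in HEV controls and 82.0, 179 and 285 in HEV PEG libraries, where libraries 7 and 15 stayed within the control range. The lowest, median and highest FRC levels were 18.8, 71.0 and 119 CPM in controls and 6.59, 23.0 and 50.2 with PEG. FRC libraries of the first pool were the low ones in both FRC groups. The Jag1 difference of 1.85 ± 0.38 (adjusted p = 0.118, edgeR) was positive in each pool, at 1.29, 2.07 and 2.41 in units of log2(CPM + 1). Dact3, an antagonist of Wnt signalling, had the widest difference of the 51 genes, 5.16 ± 1.39 (adjusted p = 0.201), at very low HEV levels. Its HEV controls were at 0.316, 0.233, 1.98 and 0.417 CPM and its HEV PEG libraries at 0.1003, 2.27 and 33.7, the highest being library 22. Dact3 met the minimum mean of 5 CPM in HEV only through library 22. Without that library the log2 difference was 3.57. FRC libraries stood at 3.44, 22.4 and 31.0 CPM in controls and 1.26, 3.36 and 12.9 with PEG.

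Regulators of membrane traffic included the small GTPases Arf6 and Rab21, which act in endocytosis and recycling, and Tbc1d10b, a GTPase-activating protein for Rab proteins. Arf6 was at 56.3, 73.8, 53.5 and 58.2 CPM in HEV controls and 75.0, 96.3 and 120.1 in HEV PEG libraries, all of them higher. In FRC it was at 31.7, 49.98 and 78.1 CPM in controls and 19.9, 38.2 and 46.7 with PEG. Rab21 was at 8.54, 2.45, 6.41 and 7.57 CPM in HEV controls and 13.4, 15.8 and 63.9 with PEG, again without overlap, and at 6.12, 18.4 and 38.2 and 1.98, 8.10 and 19.5 CPM in FRC controls and FRC PEG libraries. Tbc1d10b was at 0.823, 5.94, 7.77 and 3.75 CPM in HEV controls and 2.29, 18.6 and 39.4 with PEG, where library 14 lay within the control range. Its FRC levels were 7.81, 25.9 and 48.1 CPM in controls and 1.38, 11.8 and 19.0 with PEG. The log2 differences of Arf6, Rab21 and Tbc1d10b were 1.19 ± 0.34, 3.30 ± 0.86 and 3.63 ± 0.99 (adjusted p = 0.211, 0.192 and 0.205, edgeR).

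Tysnd1, a protease that processes peroxisomal enzymes, was at 17.0, 20.5, 35.0 and 20.1 CPM in HEV controls and 22.2, 46.9 and 68.4 in HEV PEG libraries. Its FRC levels were 33.7, 56.5 and 98.4 CPM in controls and 16.9, 27.6 and 59.3 with PEG. Fry encodes a large protein that works with NDR kinases, and it separated in HEV, at 79.6, 123, 96.7 and 116 CPM in controls and 143, 187 and 257 with PEG. FRC controls were at 31.7, 55.1 and 90.1 CPM and FRC PEG libraries at 20.0, 33.3 and 74.0, where library 2 stood above the rest. Mir6236 is a short annotated microRNA gene, and reads counted over it do not measure a mature microRNA. It was at 52.8, 55.4, 112 and 115 CPM in HEV controls and 65.7, 178 and 392 with PEG, and at 27.6, 128 and 165 and 30.3, 64.8 and 103 CPM in FRC controls and FRC PEG libraries. The differences of Tysnd1, Fry and Mir6236 were 1.92 ± 0.52, 1.41 ± 0.39 and 1.62 ± 0.39 (adjusted p = 0.205, 0.209 and 0.143, edgeR).

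**Figure D3:**
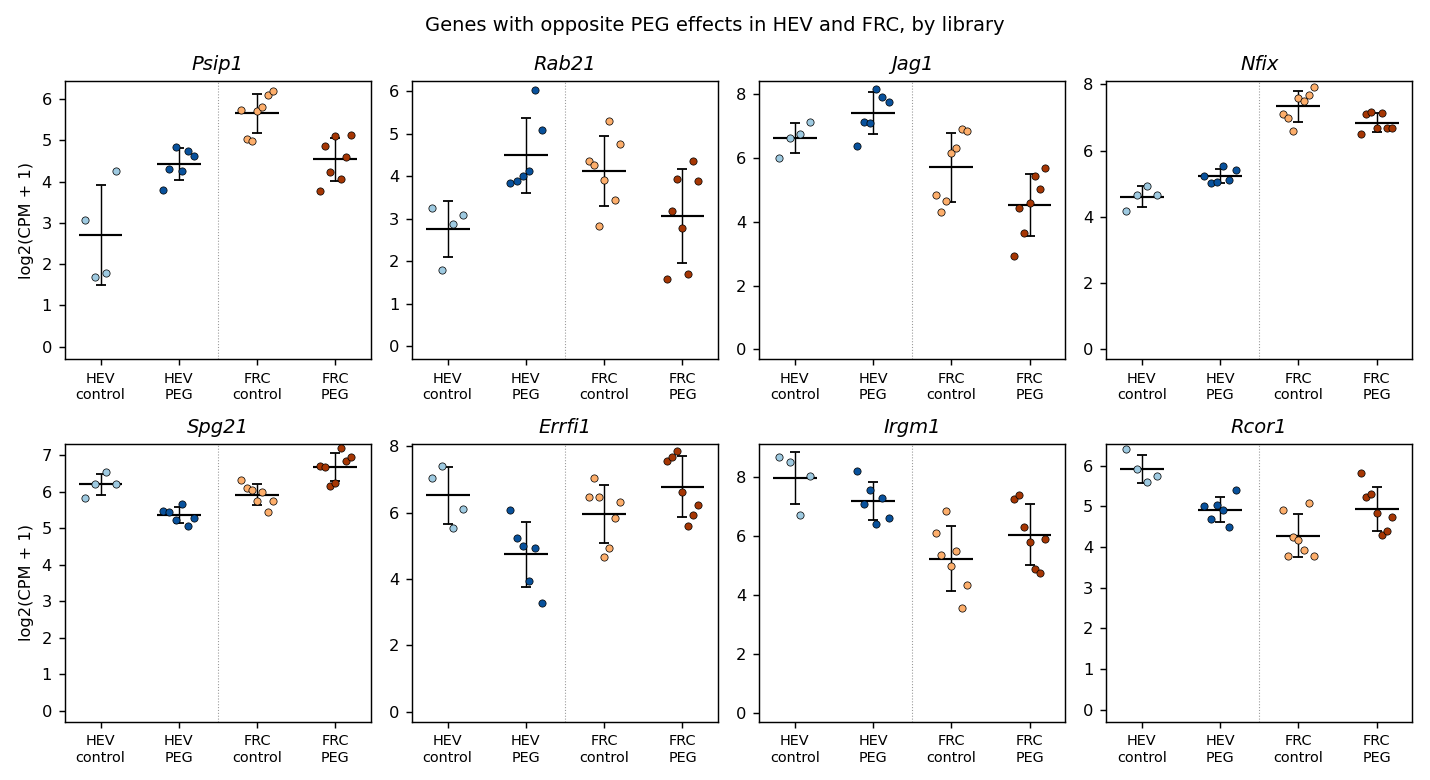
Log2(CPM + 1) of 8 opposite-way genes in each library, by group; points are libraries, horizontal bars group means and whiskers 1 SD. In the upper row the HEV PEG mean lies above the HEV control mean and the FRC PEG mean below the FRC control mean, and in the lower row the order is the reverse; HEV groups do not overlap for Rab21, Nfix, Spg21 and Rcor1.

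Lower with PEG in HEV and higher in FRC were 12 named genes led by Spg21 and Errfi1. Spg21 encodes maspardin, a protein of the endosomal and Golgi system whose loss causes a spastic paraplegia. HEV controls were at 55.8, 73.4, 92.3 and 73.6 CPM and HEV PEG libraries at 32.4, 40.2 and 50.1, all 6 below all 4 controls. FRC controls were at 42.5, 62.2 and 79.2 CPM and FRC PEG libraries at 70.6, 103 and 147, with 2 PEG libraries within the control range. The effects of -0.94 ± 0.25 in HEV and 0.80 ± 0.20 in FRC were close in size. Their difference of -1.74 ± 0.32 had the smallest adjusted p among the 51 genes (0.0680, edgeR). In the 3 pools the difference was -0.72, -1.62 and -2.51 on the log2(CPM + 1) scale.

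Errfi1 encodes a feedback inhibitor of the epidermal growth factor receptor. It was at 129.7, 167, 45.1 and 67.5 CPM in HEV controls and 8.65, 30.1 and 66.4 in HEV PEG libraries, of which only library 7 reached the control range. The lowest, median and highest FRC levels were 24.4, 78.0 and 131 CPM in controls and 47.3, 98.1 and 229 with PEG, with libraries 1 to 3 above all controls. The effects were -1.82 ± 0.40 and 0.76 ± 0.33, a difference of -2.58 ± 0.52 (adjusted p = 0.0860, edgeR). Ilk, the integrin-linked kinase at cell-matrix contacts, was at 279.9, 175, 107 and 108 CPM in HEV controls and 97.0, 124 and 129.7 with PEG. FRC libraries stood at 226, 266 and 438 CPM in controls and 309, 363 and 467 with PEG. Its difference was small, -0.81 ± 0.24 (adjusted p = 0.235), and both pairs of groups overlapped.

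Innate immune genes of this orientation were Cfb, Irgm1 and Dpp8. Cfb, complement factor B, was at 754, 777, 601 and 528 CPM in HEV controls and 325, 417 and 651 in HEV PEG libraries. In FRC it was at 103, 134 and 267 CPM in controls and 141, 198 and 309 with PEG. HEV levels were above FRC levels in both treatments, with means of 665 ± 120.5 against 154 ± 59.4 CPM (SD, n = 4 and 7) in controls and 443 ± 125 against 218 ± 58.1 (n = 6 and 7) with PEG. Irgm1, an interferon-induced GTPase that acts on vacuoles holding microbes, was at 409.6, 364, 105 and 265 CPM in HEV controls and 84.4, 146 and 295 with PEG. Its FRC levels were 10.8, 40.2 and 114 CPM in controls and 26.2, 59.2 and 169.8 with PEG. Dpp8, a cytosolic dipeptidyl peptidase, was at 120.4, 81.9, 73.8 and 51.7 CPM in HEV controls and 17.6, 41.2 and 85.2 with PEG, and at 9.75, 18.1 and 24.4 and 13.8, 26.0 and 69.0 in FRC controls and FRC PEG libraries. The differences were -1.20 ± 0.31, -1.71 ± 0.48 and -1.50 ± 0.44 in that order (adjusted p = 0.185, 0.210 and 0.235, edgeR).

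Xbp1, the transcription factor of the unfolded protein response, was at 1774, 1250.2, 975 and 943 CPM in HEV controls and 569.5, 879 and 1533 with PEG. FRC controls were at 228, 375 and 591 CPM and FRC PEG libraries at 413, 456 and 582. Its effects were -0.43 ± 0.18 in HEV and 0.40 ± 0.15 in FRC. Xbp1 is also a plasma cell marker. The 14 B and plasma cell markers, Xbp1 among them, summed to 1062 to 1976 CPM in HEV controls and 705 to 1796 with PEG. Xbp1 alone was at 943 and 1774 CPM in the control libraries at these ends, 24 and 8. It was at 569.5 and 1533 CPM in PEG libraries 16 and 7, so the sum mostly repeats Xbp1. The part of such cells was not tested. Smpd1, the lysosomal acid sphingomyelinase, was at 76.8, 26.6, 21.4 and 31.3 CPM in HEV controls and 8.93, 17.0 and 27.9 with PEG. FRC controls were at 12.0, 26.7 and 54.1 CPM and FRC PEG libraries at 27.7, 47.1 and 79.0. Smpd1 differed by -1.85 ± 0.50 and Xbp1 by -0.83 ± 0.24 (adjusted p = 0.201 and 0.214, edgeR).

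Rcor1, the CoREST corepressor, separated in HEV at 84.0, 59.4, 47.5 and 52.8 CPM in controls and 21.5, 30.3 and 41.0 with PEG. Its FRC levels were 12.7, 16.9 and 33.0 CPM in controls and 18.6, 27.5 and 55.5 with PEG. Hmces, which shields abasic sites in single-stranded DNA, separated in HEV as well, though narrowly, at 68.4, 61.9, 64.1 and 79.8 CPM in controls and 38.8, 46.7 and 61.7 with PEG. The lowest, median and highest FRC levels were 29.1, 39.0 and 63.4 CPM in controls and 42.7, 59.0 and 110.5 with PEG. Dda1, a component of CUL4 ubiquitin ligases, was at 149, 86.7, 73.4 and 67.0 CPM in HEV controls and 39.2, 53.7 and 97.0 with PEG, and at 26.1, 61.2 and 76.6 and 63.0, 82.0 and 132 in FRC controls and FRC PEG libraries. Lztr1, a CUL3 adaptor that limits RAS proteins, was at 42.2, 68.0, 8.18 and 10.3 CPM in HEV controls, which were spread widely, and 3.87, 12.8 and 28.7 with PEG. FRC libraries stood at 10.5, 26.1 and 43.1 CPM in controls and 30.4, 40.7 and 64.6 with PEG. The differences of Rcor1, Hmces, Dda1 and Lztr1 were -1.63 ± 0.44, -1.13 ± 0.32, -1.39 ± 0.37 and -2.13 ± 0.62 (adjusted p = 0.205, 0.214, 0.194 and 0.221, edgeR).

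**Figure D4:**
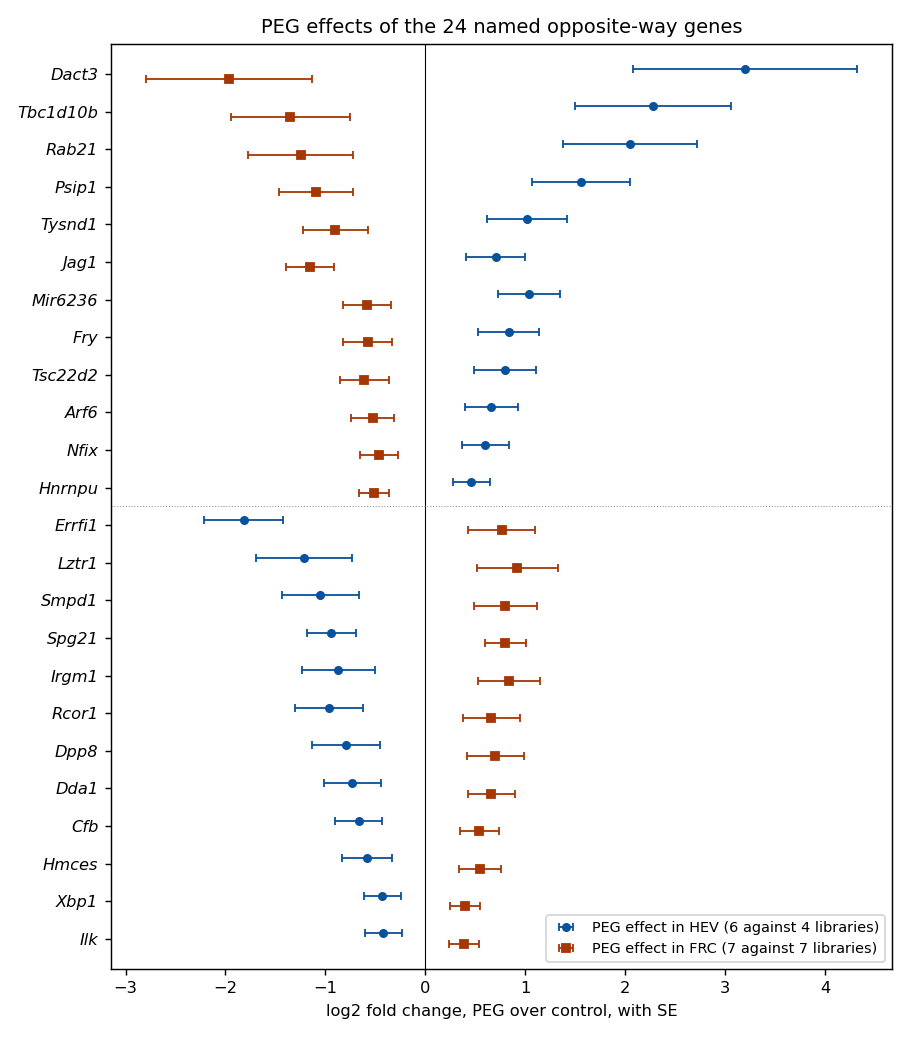
Log2 PEG effect with its SE in HEV (circles, 6 PEG against 4 control libraries) and in FRC (squares, 7 against 7) for the 24 named opposite-way genes. Every pair lies on opposite sides of 0, which the rule fixed; the effects of Dact3, Tbc1d10b and Rab21 are the widest and have the widest errors.

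The other 27 opposite-way genes were outside the naming rule or named by a list only, and are given here after their values were seen. Among the 10 that were positive in HEV, log2 differences ran from 1.11 to 1.98. They included Nr2f2 (1.43 ± 0.40), the transcription factor of venous endothelial identity, Id4 (1.95), an inhibitor of helix-loop-helix factors, Pdcd4 (1.50), an inhibitor of translation initiation, and the chromatin protein Dek (1.33). Slx4ip, Emp1, Kctd12, Ddrgk1, Spop and 4632415L05Rik made up the rest. The 17 that were negative in HEV ran from -3.20 to -0.70. Uqcrc2 (-1.55 ± 0.36), a core subunit of respiratory complex III, Hprt (-1.20), a purine salvage enzyme, Copb2 (-0.98), a subunit of the COPI vesicle coat, and Stx5a (-0.92), a Golgi SNARE, were among them. So were the lysosomal membrane proteins Laptm4b (-1.23) and Glmp (-1.21). The widest values belonged to Zfp566 (-3.20) and Pbx3 (-3.09). Eif2a, Jmjd6, Cnp, Stoml1, Tor1b, Zfp410, Puf60, Mxra8 and 1 gene model without a symbol completed the set.

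The opposite-way genes also differed in where they were expressed without PEG. Of the 29 genes lower in HEV with PEG, 26 were higher in HEV than in FRC controls. Of the 22 higher in HEV with PEG, 9 were. Over all 10242 genes, 4948 were higher in HEV controls. The control libraries enter both the level and the PEG effect, so these counts are a description. PEG libraries had a smaller gap between the cell types than control libraries for 15 of the 29 genes and 8 of the 22, against 52.4% of all genes.

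The same libraries chose the 51 genes, so counts and medians over them in subsets and other models are descriptions and no support. The sign of the difference was the same within all 3 pools for 49 of the 51 genes, against 26.6% of the 10242 genes. With the i5 index in the model the difference had an unadjusted p under 0.05 for 43 of the 51, with a median absolute log2 difference of 1.40. The rule then took 55 genes, of which 16 were among the 51. Restricted to the 18 libraries that carry the index of the PEG libraries of their cell type, the rule took 20 genes, 7 of them among the 51. In those libraries 61.4% of the 10242 genes kept both signs, and so did the 51, with a median of 1.36. Index N504 against N503 within the model gave 749 genes with an unadjusted p under 0.05 and 0 with an adjusted p under 0.05 (edgeR). With the epithelial marker level as a covariate the median absolute difference was 1.41. The rule then took 30 genes, 20 of them among the 51. The parts of the index, of the read quality that went with it, and of epithelial RNA in single genes were not tested.

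Of the genes known for HEV and FRC function, these 7 did not pass the test of the difference. The addressin Madcam1 had log2 effects of -0.25 ± 0.45 in HEV and -0.89 ± 0.37 in FRC, and the selectin ligand Glycam1 0.59 ± 1.18 and -1.45 ± 0.99. HEV Madcam1 levels were 11371, 7639, 10966 and 7495 CPM in controls and 5628, 7726 and 11929 with PEG, and overlapped. The adhesion molecules Vcam1 and Icam1 differed by -0.30 ± 0.36 and 0.029 ± 0.26, and the endothelial junction protein Pecam1 by -0.058 ± 1.05. Pdpn, the surface glycoprotein of FRCs, differed by -0.34 ± 0.66 and Tnfsf13b, the B cell survival factor BAFF, by -0.19 ± 1.39. The signs of Vcam1, Icam1, Pecam1, Pdpn and Tnfsf13b changed between alternative analyses. Glycam1 was 0.51 and Madcam1 0.32 without FRC control 20, Madcam1 0.37 without HEV PEG library 7, and Vcam1 -0.050 without HEV control 17, -0.043 without FRC PEG library 10 and -0.19 without HEV PEG library 14. Adjusted p-values for these 7 genes lay between 0.704 and 1.00 (edgeR).

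Cxcl12, which retains and guides lymphocytes, was far higher in FRC, at 1533, 2502 and 4439.9 CPM in FRC controls and 2617, 3791 and 4441 with PEG. In HEV it was at 58.0, 77.9, 33.5 and 57.9 CPM in controls and 25.1, 29.7 and 62.0 with PEG. The difference of -1.06 ± 0.31 (adjusted p = 0.232, edgeR) came mainly from HEV, where the effect was -0.76 ± 0.24 against 0.31 ± 0.20 in FRC. Cxcl13, the B cell chemokine, had nearly no HEV reads except in PEG library 14, at 9.45 CPM, and its fitted difference of 4.48 ± 1.77 (adjusted p = 0.400) was 0.88 without that library. In FRC it was at 114, 236 and 491 CPM in controls and 112, 209 and 409.8 with PEG. Bmp4, a morphogen of the same list of homeostatic factors, had effects of 0.97 ± 0.29 in HEV and -0.27 ± 0.23 in FRC, a difference of 1.24 ± 0.37 (adjusted p = 0.232). In the list as a whole the difference was positive for 8 of 16 genes. Among inflammatory chemokines and cytokines it was positive for 11 of 18, with Ccl2, a monocyte chemoattractant, at -1.85 ± 0.72 and Tslp, an epithelial and stromal cytokine, at 1.10 ± 0.67. Without HEV control 9 the Ccl2 difference was -0.87.

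Il13ra1 and Pdgfc had negative PEG effects in HEV with no opposite FRC effect by the rule. Il13ra1, a receptor chain for interleukins 4 and 13, was at 74.0, 72.4, 37.2 and 41.4 CPM in HEV controls and 4.33, 10.3 and 21.5 in HEV PEG libraries, with no overlap. It fell with PEG in HEV by 2.40 on the log2 scale (adjusted p = 0.0136 for the HEV effect, edgeR), and its FRC effect was -0.63 ± 0.33. Pdgfc, a growth factor for fibroblasts and pericytes, was at 19.6, 39.7, 24.3 and 19.2 CPM in HEV controls and 0.1003, 1.05 and 4.41 with PEG, again without overlap. In FRC it spanned 6.05, 13.4 and 34.8 CPM in controls and 0.0540, 19.7 and 38.4 with PEG. The difference was -1.77 ± 0.51 for Il13ra1 and -4.60 ± 1.17 for Pdgfc (adjusted p = 0.221 and 0.185, edgeR).

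Adamdec1, a metalloprotease-like protein of gut stroma and macrophages, was at 6536, 11139 and 15304 CPM in FRC controls and 11451, 15071 and 19062 with PEG. In HEV it was at 2.34, 46.6, 9.82 and 47.1 CPM in controls and 1.45, 3.97 and 25.1 with PEG. It differed by -2.40 ± 0.93 (adjusted p = 0.397, edgeR), or by -1.58 without HEV control 9. Lpl, lipoprotein lipase, was an FRC transcript, at 304, 365 and 513 CPM in FRC controls and 162, 269.8 and 299 with PEG. In HEV only PEG libraries 15, 16 and 23, at 2.51, 16.7 and 31.0 CPM, were above the controls' 1.02, and the difference was 5.11 ± 1.63 (adjusted p = 0.299), or 3.15 without library 23. The antioxidant enzyme Gpx3 differed by 0.35 ± 0.65 (adjusted p = 0.914), with a sign that changed when single HEV libraries were left out. Eif3l, a subunit of the initiation factor eIF3, was higher on average in PEG libraries of both cell types, at 0.30 ± 0.21 in HEV and 0.88 ± 0.17 in FRC.

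Gene lists of pathways were read by counts and medians, beside all genes tested, of which 51.7% had a positive difference and whose median log2 difference was 0.040. Over the 27 functional lists only Rragd passed the test. Median differences ran from -0.33 for heat shock and unfolded protein response genes to 0.62 for endothelial transcription factors and receptors. These counts and medians include members with little expression in 1 of the cell types. Over members of at least 5 CPM in each cell type, these 2 medians were -0.24 and 0.27. For all 10242 such genes the median was -0.055. The HEV and FRC medians lay on opposite sides of 0 for several lists. HEV was below FRC for NF-kappaB targets, translation initiation factors, and the Rag and mTORC1 genes. The same held for addressins, type I interferon, antigen presentation, and hypoxia and glycolysis. HEV was above FRC for the Notch, TGF-beta, BMP and Wnt, shear, endothelial, homeostatic factor and matrix remodelling lists.

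**Figure D5:**
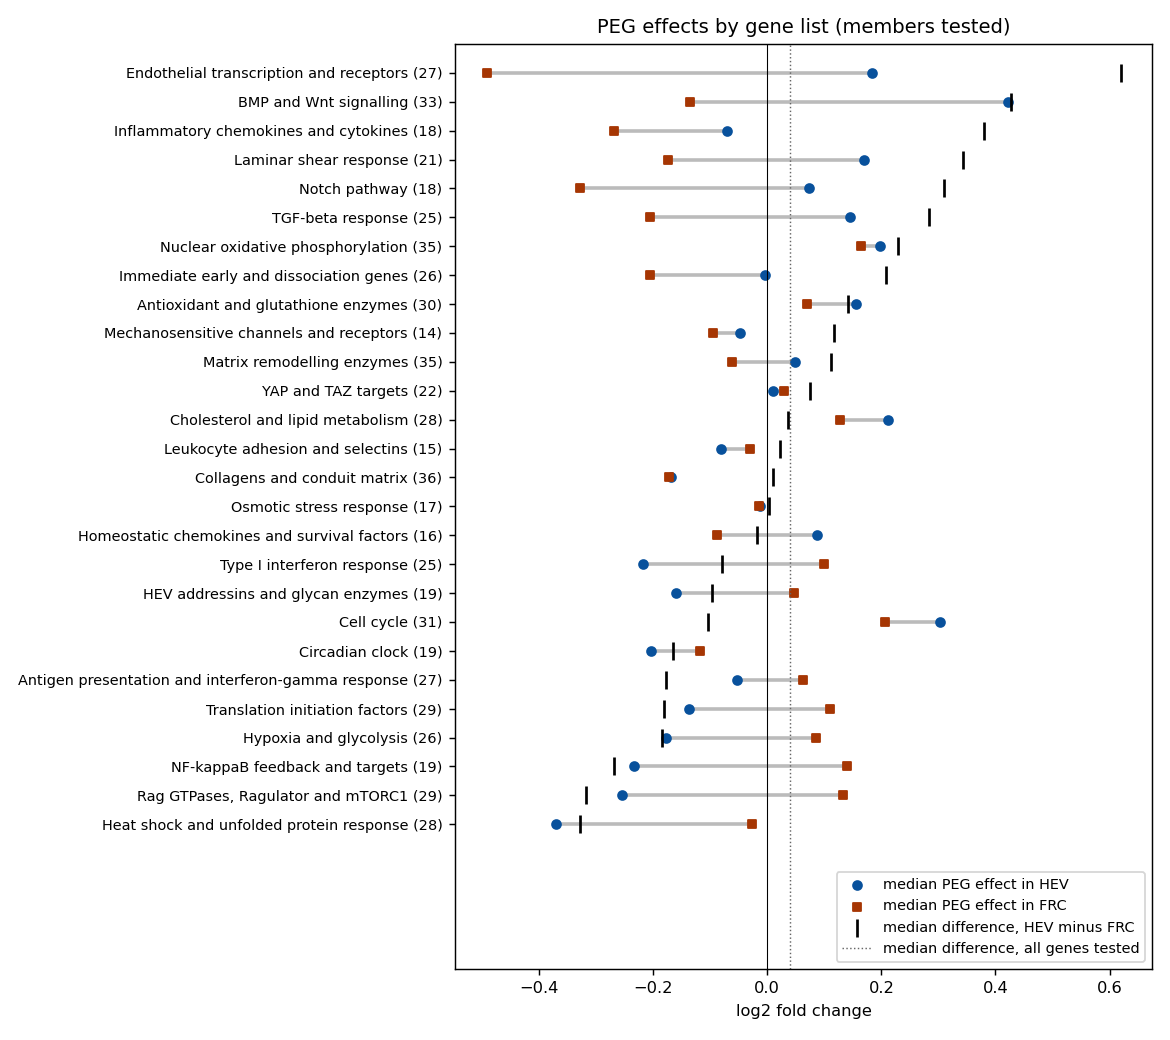
Median log2 PEG effect in HEV (circles) and in FRC (squares) of each functional list, with the median of the difference (vertical ticks) and, dotted, the median difference over all genes tested; the number of members tested is in brackets. The lists are ordered by median difference, from -0.33 at the bottom to 0.62 at the top.

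Among lists tied to fluid flow, the laminar shear response list had a positive difference for 14 of 21 genes (median 0.34). At an unadjusted p under 0.05, 3 were positive and 0 negative. Over all genes tested 51.7% were positive, with 5.55% positive and 4.52% negative at that threshold. Klf2, the shear-induced transcription factor of endothelium, was at 352, 274, 377 and 381 CPM in HEV controls and 315, 458 and 568 with PEG. FRC controls were at 84.9, 95.2 and 113 CPM and FRC PEG libraries at 38.4, 80.0 and 93.9, so both pairs of groups overlapped. Its effects were 0.29 ± 0.22 in HEV and -0.36 ± 0.18 in FRC (difference 0.65 ± 0.28, adjusted p = 0.429, edgeR). Within the 3 pools the difference was -0.15, 1.42 and 1.02 on the log2(CPM + 1) scale, with the other sign in the first. Thbd, thrombomodulin, differed by 0.67 ± 0.35 (adjusted p = 0.5263). The list of mechanosensitive channels and receptors had 8 of 14 positive. Its Piezo1, a stretch-gated channel, had effects of -0.10 ± 0.32 and -0.67 ± 0.27 (adjusted p of the difference 0.690). Adgre5, an adhesion receptor, differed by -1.43 ± 0.46 and Pkd1, polycystin 1, by 0.99 ± 0.63. Without HEV control 9 these were -0.71 and 0.65, and without FRC control 5 that of Piezo1 was 0.31 in place of 0.57. Of the YAP and TAZ targets 12 of 22 were positive, with Ccn2 at 1.72 ± 0.67 and Ccn1 at -0.47 ± 0.22, or -0.23 without HEV control 9.

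In the lists of HEV identity, addressins and their glycan enzymes had 9 of 19 positive (median -0.096) and leukocyte adhesion genes 8 of 15 (median 0.022). The sialomucin Cd34, a carrier of selectin ligands, was at 966, 843, 468 and 596 CPM in HEV controls and 329, 460.1 and 828 with PEG (difference -0.64 ± 0.27, adjusted p = 0.412, edgeR; -0.40 without HEV control 9). Ackr1, a venular chemokine-binding receptor, differed by 3.57 ± 1.51, with effects of 0.33 ± 1.11 in HEV and -3.23 ± 1.01 in FRC. FRC libraries held little of it, with 0.448, 2.66 and 63.8 CPM in controls and 0, 0.303 and 7.61 with PEG. Esam and Mcam, adhesion proteins of endothelial and mural cells, differed by -1.12 ± 0.86 and 1.01 ± 0.82, the latter by 1.73 without HEV control 9. Among endothelial transcription factors and receptors 18 of 27 were positive, with 5 positive and 0 negative at an unadjusted p under 0.05. Over all genes tested 51.7% were positive, with 5.55% positive and 4.52% negative at that threshold. Of the 14 list members of at least 5 CPM in each cell type, 9 were positive. The FRC median of this list was -0.49 and its HEV median 0.18. Erg, an endothelial transcription factor and itself a pan-endothelial marker, had effects of 0.97 ± 0.88 in HEV and -2.32 ± 0.76 in FRC, where it was at 2.06, 11.6 and 15.8 CPM in controls and 0, 0.910 and 9.33 with PEG. The sum of the 20 pan-endothelial markers in FRC libraries was 363 to 814 CPM in controls and 379 to 623 with PEG, and its part in these FRC effects was not tested.

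Nr2f2, of the same list, was at 227, 267, 270.4 and 329 CPM in HEV controls and 228, 409 and 1004 in HEV PEG libraries. The lowest, median and highest FRC levels were 41.3, 86.7 and 149 CPM in controls and 34.5, 49.5 and 73.2 with PEG. The highest HEV value came from library 16, the shallowest, and the HEV groups overlapped. Without library 16 the difference was 1.10.

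The lists of developmental signalling are read against the 51.7% of all genes with a positive difference. The TGF-beta list had 15 of 25 positive (median 0.28), with 6 positive and 2 negative at an unadjusted p under 0.05. The BMP and Wnt list had 19 of 33 positive (median 0.43), with 6 positive and 2 negative. Over all genes tested, 5.55% were positive and 4.52% negative at that threshold. Among members of at least 5 CPM in each cell type, 12 of 20 were positive in the TGF-beta list (median 0.44). In the BMP and Wnt list 7 of 14 were (median 0.090). Ltbp1, which anchors latent TGF-beta in matrix, differed by 1.43 ± 0.46 and Id2, an inhibitor of helix-loop-helix factors induced by BMPs, by 0.89 ± 0.32 (adjusted p = 0.282 and 0.338, edgeR). In the Notch list 10 of 18 were positive. Its target Hes1 was at 122, 114, 119 and 118 CPM in HEV controls and 106, 185 and 276 with PEG, where only library 7 was below the controls. In FRC Hes1 was at 365, 529 and 709.8 CPM in controls and 195, 395 and 628 with PEG. Hes1 had the same pair of signs as the ligand Jag1, with effects of 0.47 ± 0.24 and -0.50 ± 0.19 and a difference of 0.96 ± 0.31 (adjusted p = 0.283, edgeR). Its HEV effect was outside the rule (unadjusted p = 0.0652, edgeR). Of the 8 Notch list genes of at least 5 CPM in each cell type, 3 had opposite signs, beside 54.8% of all such genes. Jag1 and Hes1 were named for their small p, so nothing is read from the pair.

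The matrix lists were close to evenly split. Collagens and conduit matrix had 18 of 36 positive (median 0.0098) and matrix remodelling enzymes 20 of 35 (median 0.11). The fibrillar collagens Col1a1 and Col1a2 were the members of the first list named by rule, with differences of -4.56 ± 1.15 and -3.19 ± 0.83 (adjusted p = 0.192 and 0.194, edgeR). They are FRC transcripts, and in HEV controls Col1a1 was at 0.633, 51.3, 0.341 and 3.40 CPM, with control 9 alone above 5 CPM. Without control 9 the Col1a1 difference was -1.56 and the Col1a2 difference -3.73. Control 9 also held the highest fibroblastic marker sum among HEV libraries, a sum that includes both collagens. Col1a2 itself was at 21.6, 1.98, 18.8 and 0.903 CPM in HEV controls 8, 9, 17 and 24, so control 9 was not high for it. The part of fibroblastic RNA in these values was not tested. P4ha1, a collagen prolyl hydroxylase, differed by -1.19 ± 0.38 and Timp2, an inhibitor of matrix proteases, by 0.95 ± 0.37.

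Antigen presentation and interferon-gamma genes had 18 of 27 negative (median -0.18). At an unadjusted p under 0.05, 4 were negative and 0 positive, beside 4.52% and 5.55% of all genes tested. Among the 4 were Irgm1 and the class I gene H2-D1 (-0.59 ± 0.20, adjusted p = 0.316, edgeR). Type I interferon genes had 13 of 25 negative. Irf7, the amplifying factor of that response, had effects of -0.51 ± 0.44 and 0.89 ± 0.38 and Cmpk2 -0.64 ± 0.69 and 1.47 ± 0.59. Of NF-kappaB genes 12 of 19 were negative (median -0.27), with 0 in either direction at an unadjusted p under 0.05. Without HEV control 17 the H2-D1 difference was -0.37. Nfkbia, the inhibitor that NF-kappaB induces, differed by -0.41 ± 0.21 and Bcl3 by -0.93 ± 0.54.

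Translation initiation factors had 17 of 29 negative (median -0.18), with 51.7% of all genes positive. At an unadjusted p under 0.05, 7 members were negative and 0 positive, beside 4.52% and 5.55% of all genes. Eif4b, a cofactor of the helicase that unwinds mRNA leaders, was at 329, 474, 195 and 238 CPM in HEV controls and 152, 178 and 366 with PEG. FRC libraries stood at 108, 144 and 271 CPM in controls and 145, 197 and 329 with PEG (difference -1.03 ± 0.27, adjusted p = 0.193, edgeR), or -0.60 without HEV control 9. Eif3f, a subunit of eIF3, differed by -0.51 ± 0.19 and Eif3l by -0.58 ± 0.27. The Rag, Ragulator and mTORC1 list had 20 of 29 negative (median -0.32), whereas that of Rragd was positive. Rraga, another Rag GTPase, differed by -1.04 ± 0.37 and Sesn1, a stress-induced inhibitor of mTORC1, by 1.60 ± 0.79, or 2.67 without HEV control 17. In the heat shock and unfolded protein list 21 of 28 were negative (median -0.33), including Xbp1 and Herpud1, a factor of endoplasmic reticulum degradation (-0.81 ± 0.27, adjusted p = 0.314; -0.54 without HEV control 9).

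Among metabolic lists, hypoxia and glycolysis genes had 17 of 26 negative (median -0.18). The glycolytic enzyme Aldoa was at 707, 572, 707 and 566 CPM in HEV controls and 477, 592 and 672 with PEG, and at 274, 337 and 428 in FRC controls and 406, 498 and 571 with PEG. Its difference was -0.69 ± 0.19 and that of Ldha, lactate dehydrogenase A, -0.77 ± 0.24 (adjusted p = 0.210 and 0.273, edgeR), and for both the FRC effect was the larger. Nuclear oxidative phosphorylation genes had 20 of 35 positive (median 0.23). Its members split, with Uqcrc2 at -0.61 ± 0.28 in HEV and 0.93 ± 0.23 in FRC and Cox6c, of complex IV, at 0.40 ± 0.24 and -0.51 ± 0.19. Antioxidant and glutathione enzymes had 21 of 30 positive (median 0.14), with Srxn1 at 3.12 ± 1.45 and the regulator Nfe2l2 at -0.56 ± 0.27. Without HEV control 24 the Srxn1 difference was 5.99. Cholesterol and lipid genes had 17 of 28 positive, and Insig1, the sterol sensor partner, differed by -0.99 ± 0.34, or -0.50 without HEV control 9. The osmotic stress list had 9 of 17 positive (median 0.0023), with the taurine transporter Slc6a6 at -1.19 ± 0.50 and the osmotic stress factor Nfat5 at 0.51 ± 0.40. Slc6a6 was -0.75 without HEV control 9, and Nfat5 0.29 without FRC control 21 and 0.26 without HEV PEG library 22.

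Immediate early genes, which tissue dissociation can induce, had 17 of 26 positive (median 0.21), with Nr4a2 at 1.69 ± 0.63 and Ier3 at 0.79 ± 0.30. Clock genes had 13 of 19 negative, with Nr1d2 at 1.63 ± 0.93 and Cry1 at -1.23 ± 0.86, or -2.12 without HEV PEG library 23. Cell cycle genes had 15 of 31 positive, with the replication helicase subunit Mcm6 at -1.32 ± 0.55 and cyclin Ccnd2 at 1.03 ± 0.45. Adjusted p-values of these 6 genes lay between 0.357 and 0.661 (edgeR).

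Intestinal epithelial genes had positive median PEG effects in both cell types, 1.98 in HEV and 2.33 in FRC, and 19 of 27 had a negative difference. The 16 myeloid markers summed to 62.2 to 247 CPM in HEV controls and 37.6 to 141 with PEG, against 53.0 to 316 and 109 to 306 in FRC. Adgre1, Fcgr1, S100a8, S100a9 and Flt3 had no read in any HEV control, and Itgax, C1qb and S100a9 none in any HEV PEG library. Of the 8 myeloid genes tested, 7 had a negative difference. The 14 T and NK cell markers summed to 22.5 to 67.7 CPM in HEV controls and 44.4 to 129 with PEG, and 6 of the 6 tested had a positive difference. Gzma had no read in any HEV library, and Zap70, Gzmb and Ncr1 none in the HEV controls. Pan-leukocyte markers summed to 70.0 to 194 CPM in HEV controls and 47.8 to 148 with PEG. Their part in the immune genes above, among them Irgm1, Irf7 and Ccl2, was not tested.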

How the data were processed

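RNA from sorted Peyer's patch cells was sequenced in 24 libraries. Per the labels' protocols, cDNA came from template switching and libraries from a Nextera kit, low-quality, rRNA and adapter reads were dropped, and only reads with a unique alignment were counted. The aligner was GSNAP and the build mm9, per the submitters' processing notes. The protocol text names a human build, but the deposited gene IDs are those of mouse genes. Versions and the annotation are not given in the sources used here. Per the file headers, each deposited file holds a read count and an RPKM value for each of 36528 gene models. The counts are whole numbers and were used, while the deposited RPKM values served as a check on the counts only. Symbols from RefSeq matched 31049 models, which held 97.3% of reads.

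Counts were tested with edgeR 4.0.16 (limma 3.58.1, R 4.3.3): TMM scaling, filterByExpr with its count minimum of 10, a model with a mean per group and the sequencing pool (libraries 1 to 8, 9 to 16 and 17 to 24, inferred from recurring index pairs), and a two-sided robust quasi-likelihood F test of the difference, with Benjamini-Hochberg adjustment over 18203 genes. All 24 libraries entered 1 fit. Library numbers do not pair the cell types, and p-values measure the spread between libraries. Opposite-way genes needed at least 5 CPM in each cell type and an unadjusted p under 0.05 for each PEG effect. Named were the genes that passed the test, up to 12 opposite-way genes per orientation by the larger of their 2 p-values, the 2 genes of smallest p of each functional list with at least 5 CPM in both cell types, and 18 HEV and FRC genes; predicted genes, receptor segments and models with the counts of another model were passed over. The genes and lists were chosen with earlier results of these data known. The library totals, 12416032 to 21710946 reads apart from 3115003 in HEV PEG library 16, and the 4 HEV controls limit the precision. Alternatives were other scalings, filters, covariates, library subsets, DESeq2 1.42.0 and limma-voom. The restriction to libraries of 1 index per cell type was chosen after seeing the data. The main fit was also run on simulated counts. These held no pool or index effect, so that run does not bear on either.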

Additional observations from a re-analysis of the deposited data

Results flagged for a closer look

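Rragd and Flnc differed between the cell types by the test of the difference itself, with log2 differences of 8.27 and 4.57 (edgeR, adjusted p = 0.0208 and 0.0234). Among the 120 groups of 4 to 10 libraries examined, for named genes and marker levels, 6 had a highest or lowest library set apart by a gap that was large for its group. Chance alone gives about 1 in 20. Hnrnpu was at 152 CPM in FRC PEG library 1, where the next lowest FRC PEG library was at 231. Dact3, the Wnt antagonist, was at 33.7 CPM in HEV PEG library 22, with the next at 8.99. It was at 1.98 CPM in HEV control 17, with the next control at 0.417. Fry was at 74.0 CPM in FRC PEG library 2, with the next at 39.0. Dpp8 was at 69.0 CPM in FRC PEG library 3, with the next at 31.9. The mean log2(CPM + 1) of pan-leukocyte markers was 1.05 in HEV control 17, below the next HEV control at 2.04.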

How the results depend on the processing

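No paired analysis was possible because the labels give each library a number of its own, so the groups share none. The 2 calls of the difference were kept with DESeq2 size factors, the submitters' size factors, a count minimum of 50 and the epithelial level in the model. The number of calls was 38 without a filter, 350 with DESeq2, 0 with limma-voom, 5 without covariate, 0 with the i5 index added, 41 with the pool nested in cell type and 7 with libraries 1 to 9 against 10 to 24 as covariate. It was 0 in libraries 10 to 24 alone, 19 in libraries 1 to 9 alone and 4 in libraries of 1 index per cell type, the last 2 sharing 0 genes with the 2 calls. Leaving out 1 library at a time gave 1 to 16 calls. In libraries 1 to 9 the HEV PEG group is library 7 alone, which is assumed to vary like the other groups. The cause of these changes was not tested.

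The 51 opposite-way genes numbered 30 with the epithelial level in the model, 104 in libraries 10 to 24 (33 higher and 71 lower in HEV), 12 in libraries 1 to 9, 20 in libraries of 1 index per cell type and 2 at an unadjusted p under 0.01. Without a covariate there were 51, split 11 higher and 40 lower, of which 20 were shared. Leaving out 1 library gave 35 to 62, and the remaining alternatives 41 to 59.

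Of 89 named genes, 14 had a log2 difference of the other sign under some alternative fit, none of them among the 26 called or opposite-way genes. The same libraries chose those 26, so the lack of reversals among them was favoured in advance and is no support. Of the 89, 19 had the other sign within at least 1 pool taken alone. In libraries 1 to 9 alone the values were Pkd1 -1.17, Bmp4 -0.82, Irf7 0.087, Ier3 -0.21, Sesn1 -0.96, Lpl -4.07, Ccnd2 -0.56, Cxcl13 -1.88, Vcam1 0.42 and Tnfsf13b 3.30. Icam1 was -0.0086 without a filter, -0.048 without covariate and -0.011 with the epithelial level. Tnfsf13b was 0.44 with DESeq2, 0.12 with limma-voom, 0.50 with the i5 index and 4.17 in libraries of 1 index per cell type. Pdpn was 0.17 and Pecam1 0.16 with limma-voom. Pecam1 was 0.063 without covariate, 1.15 with the i5 index, 0.062 with the covariate of libraries 1 to 9, 0.23 with the epithelial level, 2.79 in libraries 10 to 24 and 1.48 in libraries of 1 index per cell type. Leaving out 1 library at a time, Icam1 ran from -0.11 to 0.18, Tnfsf13b from -2.13 to 4.52, Pdpn from -0.77 to 0.13, Pecam1 from -0.96 to 1.26 and Gpx3 from -0.19 to 1.34.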
